A study of Homo sapiens and Mus musculus with 34 samples.

Results

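U4 and U5 are small nuclear RNAs of the spliceosome, the machine that removes introns from messenger RNA precursors. A set of 120 symbols of these RNAs was followed in 4 human neuroblastoma cell lines given the kinase inhibitor CYC065. The set holds every symbol of the authors' gene table whose name starts with RNU4- or with RNU5, a letter or none, and a dash, out of 32970 symbols that could be placed on rows of the array. It comprises 89 U4 symbols and 31 U5 symbols. Symbols ending in P, which mark pseudogene copies, make up 113 of them (87 U4 copies and 26 U5 copies), and the other 7 are the genes RNU4-1, RNU4-2, RNU5A-1, RNU5B-1, RNU5D-1, RNU5E-1 and RNU5F-1. All 120 symbols were placed on a row, 118 on 1 row and 2 on a pair of rows.

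RNA was measured on Affymetrix human transcriptome arrays, 24 in all, with 3 untreated and 3 treated arrays in each of 4 lines. These were Kelly and SKNAS, BE(2)C (BE2C from here on) and SH-SY-5Y (SHSY5Y from here on). CYC065 inhibits cyclin-dependent kinases, and the title of the series names CDK9, the kinase that releases paused RNA polymerase II. From general knowledge, the oncogene MYCN is amplified in Kelly and BE2C but not in SKNAS or SHSY5Y. Cells were exposed for 1 h to 1 µM in Kelly, BE2C and SHSY5Y. The SKNAS dose is 1 µM by its labels but 5 µM by the written protocol, and the conflict could not be settled. The controls are labelled untreated, whereas the design text describes them as given an equal amount of DMSO. Kelly and SKNAS were deposited earlier and BE2C and SHSY5Y later, so a level in one of the first pair cannot be told apart from its deposit when set against one of the second pair. The design text calls the 3 arrays of a group biological replicates without saying what was separate, so p-values measure the spread between these samples, which may be partly technical.

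In the active spliceosome precursor, U4 is paired with U6 and joined to U5 in the U4/U6.U5 tri-snRNP. U4 holds U6 in an inactive form until it is unwound and released, and U5 holds the ends of the exons in place while they are joined. The genes of U4 and U5 are transcribed by RNA polymerase II from short promoters read by the SNAPc complex, and the Integrator complex cuts the new RNA near its 3′ end. The RNA is then exported, fitted with a ring of Sm proteins by the SMN complex, capped anew, trimmed and returned to the nucleus. The human genome also carries many copies of these genes that resemble them closely in sequence, so the signal of a row can hold RNA of a related gene or copy. How much it does was not tested, because the sequences of the probes were not used here.

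The arrays of a group agreed closely, with correlations across symbols between 0.994 and 0.999. HAND2, a transcription factor of sympathetic neurons, read 9.09 to 10.3 (log2) in the untreated lines, and DBH, which makes noradrenaline, read 5.97 in SKNAS and 11.5 to 12.5 in the others. MYCN read 11.7 in untreated Kelly and BE2C, 6.07 in SKNAS and 6.86 in SHSY5Y. All levels are log2 values as deposited and all changes are treated minus untreated on that scale. The arrays carry 23 rows of background probes, and the median of those rows was 3.57 over the 24 arrays. Single background rows averaged from 2.01 to 12.2, so this median is a reference point and not a limit of detection. Of the 7 genes, 6 lay above the median of 3.57 on average (all except RNU5F-1), and 32 of the 113 copies did. The background rows themselves read higher on treated arrays, by 0.13 in Kelly, 0.07 in SKNAS, 0.12 in BE2C and 0.15 in SHSY5Y. The part of this shift in the results was not tested. Counts with each array centred on these rows are given for Kelly, SHSY5Y, the average, the F test and untreated BE2C against SHSY5Y.

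After 1 h of CYC065, 6 of the 7 U4 and U5 genes read higher on every treated array than on any untreated array in all 4 lines. Of all symbols 0.98% did so. In the single lines 27.7% (Kelly), 13.7% (SKNAS), 10.9% (BE2C) and 7.91% (SHSY5Y) of all symbols did. On average over the lines all 7 genes rose, by 0.37 to 1.24. The copies moved less, with a median change of 0.19, beside 0.04 for all symbols. Of the 113 copies, 81 lay at or below the background median, unlike most of the genes. A symbol is called when its Benjamini-Hochberg adjusted p from limma, taken over all 32970 symbols, is under 0.05. In Kelly 43 of the 120 symbols were called higher (35.8%, against 8.92% of all symbols) and 1 was called lower (10.9% of all symbols). In SKNAS 15 were called higher (12.5%, against 1.36%) and 1 lower (4.58% of all symbols). In BE2C 9 were called higher (7.5%, against 0.692%) and 0 lower (3.05%), and in SHSY5Y 11 were called higher (9.17%, against 0.409%) and 0 lower (3.96%). At an unadjusted limma p under 0.05 the numbers higher were 42 in BE2C and 43 in SHSY5Y, with 0 lower in both. Of all 32970 symbols, 5570 in BE2C and 4228 in SHSY5Y passed that unadjusted limit in either direction. The calls in either direction numbered 44, 16, 9 and 11 in Kelly, SKNAS, BE2C and SHSY5Y (19.9%, 5.94%, 3.74% and 4.37% of all symbols). A fit to all 24 arrays that weighted the lines equally called 66 higher on average (55%, against 15.6%) and 1 lower (12.9%), 67 together (28.5%). Cells were lysed in bulk and a fixed amount of RNA was put on each array, so more of an RNA per cell and less of the other RNA cannot be told apart, nor can fewer cells of a type and less RNA per cell.

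The median change of the 120 symbols was 0.24 in Kelly, 0.15 in SKNAS, 0.21 in BE2C and 0.17 in SHSY5Y. Over all symbols the median was 0.07, 0.03, 0.01 and 0.02 in the same order. With the arrays centred on the background rows, there were 14 calls in Kelly and 1 in SHSY5Y in place of 44 and 11, and 29 on average in place of 67. The share of all symbols called under that setting is not given here. These counts therefore do not show whether the set lost more calls than other symbols. That setting, chosen after seeing the data, moved the median of all symbols to −0.05, −0.03, −0.11 and −0.13, and the median of the 120 to 0.12, 0.09, 0.09 and 0.02. It subtracts 1 value per array, so the gap between these medians cannot change under it.

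**Figure D1:**
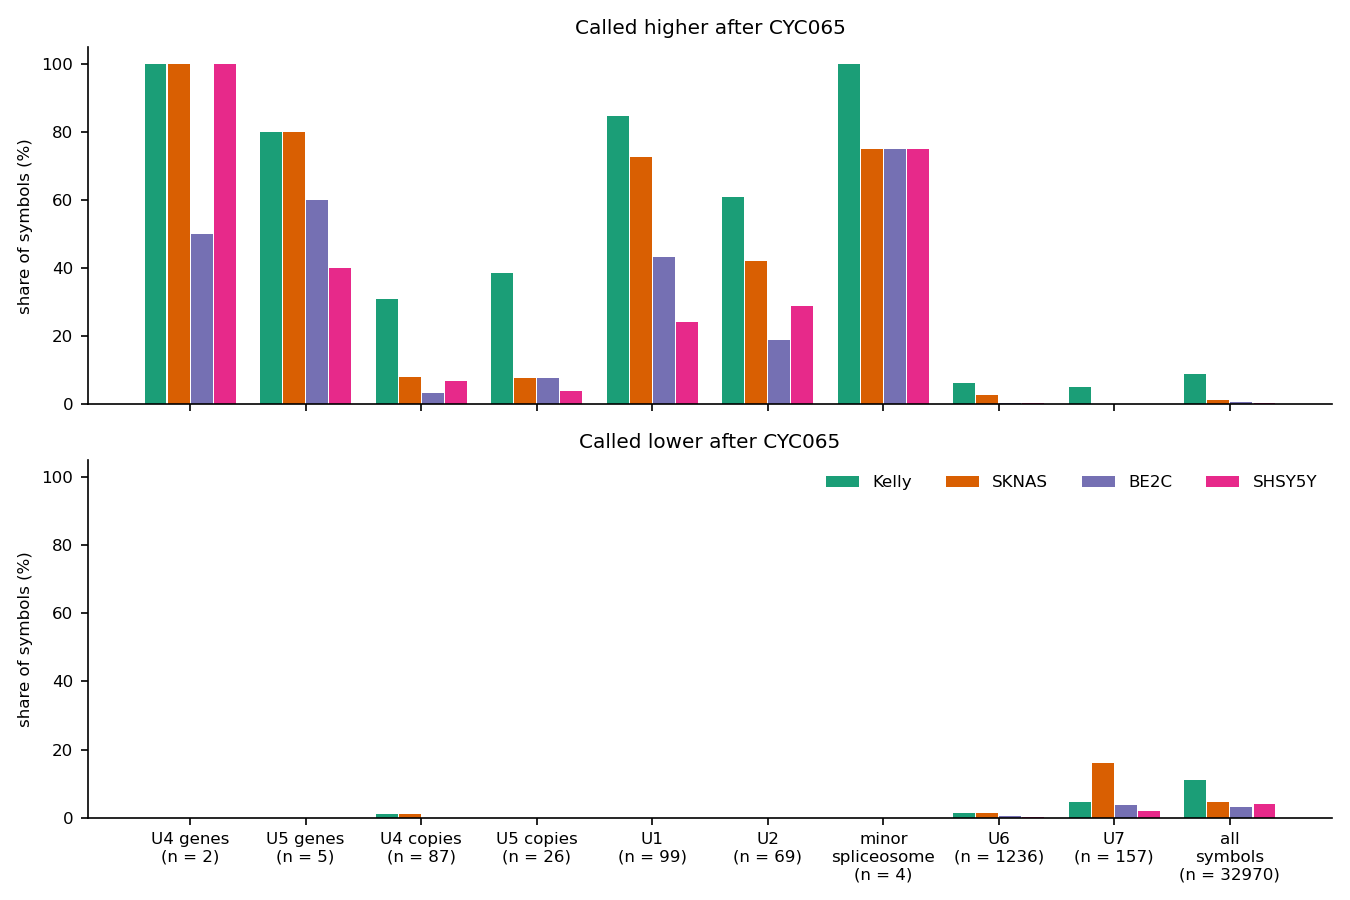
Share of symbols called higher (top) and lower (bottom) after CYC065, in percent, for the 4 classes of U4 and U5 symbols, for other small nuclear RNA classes and for all symbols; bars are coloured by line and n is the number of symbols. U4 and U5 genes stand well above all symbols in the top panel, the copies reach 31% (U4) and 38.5% (U5) in Kelly and stay under 10% in the other lines, and 1 U4 copy was called lower, in Kelly and SKNAS.

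The classes moved by unequal amounts. Both U4 genes were called higher in Kelly, SKNAS and SHSY5Y and 1 of them in BE2C. Of the 5 U5 genes, 4 were called higher in Kelly, 4 in SKNAS, 3 in BE2C and 2 in SHSY5Y. Of the 113 copies, 37 were called higher in Kelly, 9 in SKNAS, 5 in BE2C and 7 in SHSY5Y (32.7%, 7.96%, 4.42% and 6.19%). Over all symbols the shares called higher were 8.92%, 1.36%, 0.692% and 0.409%. On average over the lines, both U4 genes, all 5 U5 genes, 46 of 87 U4 copies and 13 of 26 U5 copies were called higher. That was 52.9% of the U4 copies and 50% of the U5 copies, against 15.6% of all symbols. Across lines, 5 symbols were called higher in all 4 (0.143% of all symbols were): RNU4-1, RNU5A-1, RNU5D-1 and the copies RNU5E-4P and RNU4-68P. The treated arrays lay above every untreated array in all 4 lines for 13 symbols (0.98% of all symbols), among them every gene except RNU5F-1. No line called 70 of the 120 symbols higher (90.1% of all symbols).

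**Figure D2:**
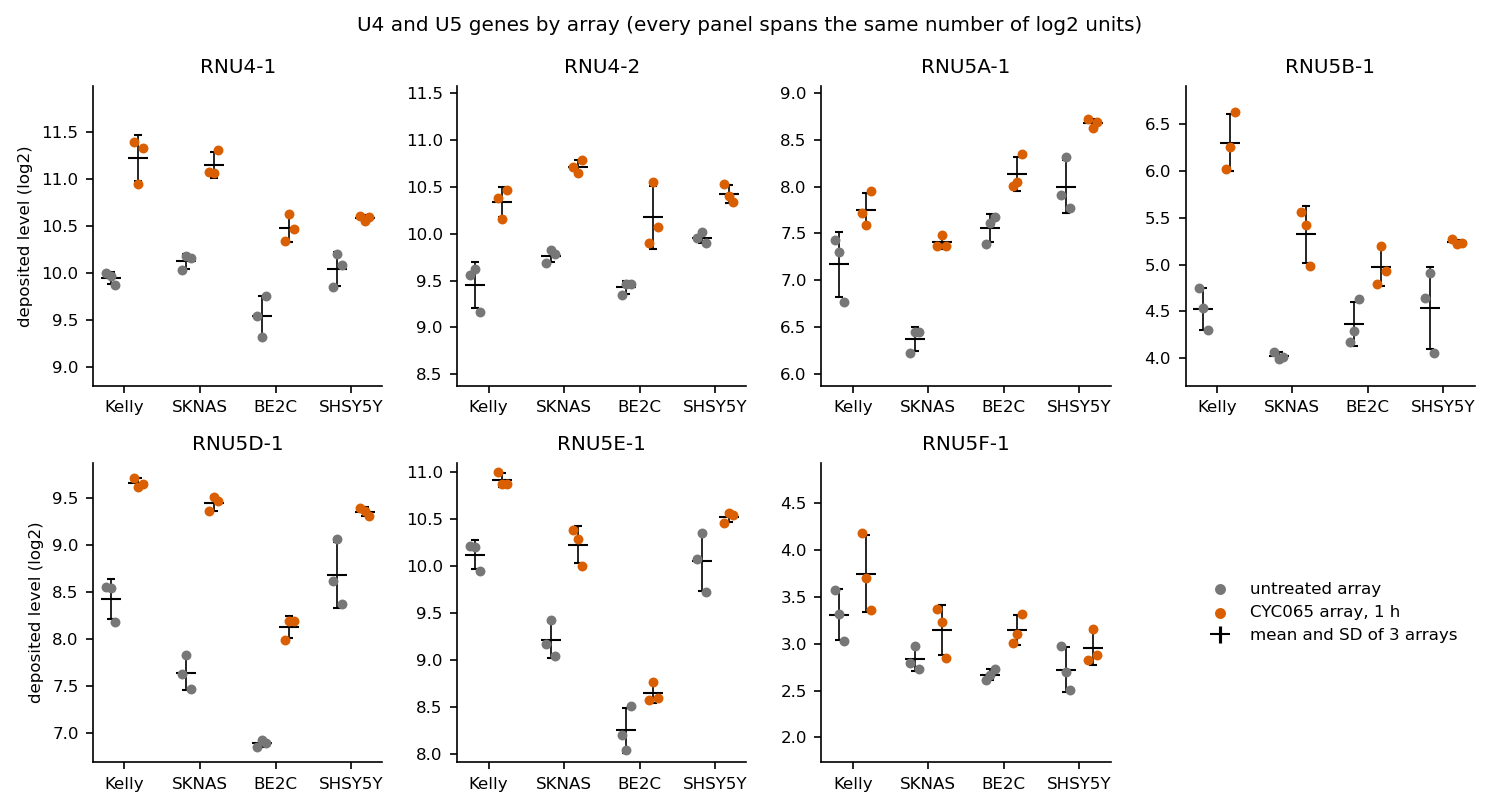
Deposited log2 level of the 7 U4 and U5 genes on each array, by line, with untreated arrays in grey, treated arrays in orange and bars for the mean and SD of 3 arrays. The treated arrays lie above the untreated ones in every line for all genes except RNU5F-1, whose values lie near the array background of 3.57.

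RNU4-1 and RNU4-2 encode the U4 RNA of the major spliceosome. They lie on chromosome 12 with no other gene of the RefSeq table between them. For RNU4-1 the untreated Kelly arrays read 10.00, 9.97 and 9.87 and the treated ones 11.40, 10.95 and 11.33. The SKNAS arrays read 10.03, 10.18 and 10.16 untreated and 11.08, 11.06 and 11.31 treated. No treated array fell within the untreated range, and the gap was about 1 log2 unit in both lines. In BE2C the values were 9.54, 9.32 and 9.75 untreated against 10.34, 10.63 and 10.47 treated. In SHSY5Y they were 9.85, 10.20 and 10.09 against 10.61, 10.55 and 10.60. The groups were separate there too, with a narrower gap in SHSY5Y. RNU4-1 rose by 1.28 ± 0.11 (SE) in Kelly (2.43-fold, adjusted p = 0.000193) and by 1.03 ± 0.08 in SKNAS (2.04-fold, adjusted p = 0.000139). It rose by 0.94 ± 0.12 in BE2C (1.92-fold, adjusted p = 0.00904) and by 0.55 ± 0.10 in SHSY5Y (1.46-fold, adjusted p = 0.0126). The BE2C call was lost without untreated array 1 (adjusted p = 0.0505). The SHSY5Y call was lost without treated array 6 (adjusted p = 0.0542), under quantile normalisation (0.0611) and with centring on the background rows (0.134).

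RNU4-2 read 9.56, 9.62 and 9.17 on untreated Kelly arrays and 10.38, 10.16 and 10.47 on treated ones. In SKNAS it read 9.69, 9.83 and 9.78 against 10.72, 10.65 and 10.78. Both lines showed a clear step with no overlap. In BE2C the untreated arrays read 9.35, 9.47 and 9.46 and the treated ones 9.90, 10.55 and 10.08. In SHSY5Y they read 9.95, 10.01 and 9.90 against 10.53, 10.40 and 10.34. The BE2C treated arrays were the most scattered, but all 3 lay above the untreated ones. RNU4-2 rose by 0.89 ± 0.13 in Kelly (1.85-fold, adjusted p = 0.00266), by 0.95 ± 0.07 in SKNAS (1.93-fold, adjusted p = 6.75e-05) and by 0.47 ± 0.08 in SHSY5Y (1.38-fold, adjusted p = 0.01). The BE2C difference was 0.75 ± 0.16 (adjusted p = 0.0513), just short of the threshold, and it passed under 8 of 15 alternatives, among them the fits without treated array 4 (0.0364) or 5 (0.0254). Centring on the background rows ended the SHSY5Y call (adjusted p = 0.327).

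The U5 genes lie in 3 places, RNU5A-1 and RNU5B-1 next to each other on chromosome 15, RNU5D-1 and RNU5F-1 next to each other on chromosome 1, and RNU5E-1 on chromosome 1 next to the copy RNU5E-4P. They encode variants of U5 that differ at a few bases. RNU5A-1 read 7.43, 7.30 and 6.77 on untreated Kelly arrays and 7.72, 7.59 and 7.95 on treated ones. In SKNAS it read 6.22, 6.45 and 6.45 against 7.37, 7.49 and 7.36. The SKNAS groups were far apart, while in Kelly the lowest treated array stood close above the highest untreated one. In BE2C it read 7.39, 7.61 and 7.68 against 8.01, 8.05 and 8.35, and in SHSY5Y 7.91, 8.32 and 7.77 against 8.72, 8.62 and 8.69. RNU5A-1 rose by 1.03 ± 0.08 in SKNAS (2.05-fold, adjusted p = 0.000102). The rises of 0.58 ± 0.17 in Kelly (adjusted p = 0.0496), 0.58 ± 0.11 in BE2C (0.0426) and 0.68 ± 0.13 in SHSY5Y (0.0184) were called, but narrowly. They were lost under 9, 7 and 5 of 15 alternatives, with adjusted p up to 0.111, 0.137 and 0.164. Leaving out treated array 4, 5 or 6 ended the call in each of these lines. Leaving out untreated array 2 or 3 in Kelly, any untreated array in BE2C or untreated array 1 in SHSY5Y also ended it. The adjusted p of these fits ran from 0.052 to 0.137.

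RNU5B-1 had the largest change of the 7 genes in Kelly. Its untreated Kelly arrays read 4.75, 4.53 and 4.30 and its treated ones 6.02, 6.25 and 6.63. In SKNAS it read 4.07, 3.99 and 4.01 against 5.56, 5.42 and 4.98. Both lines were separated by about 1 unit or more. In BE2C it read 4.18, 4.29 and 4.63 against 4.79, 5.19 and 4.94, and in SHSY5Y 4.64, 4.91 and 4.06 against 5.27, 5.22 and 5.23. The groups of these lines did not overlap either, but lay closer together. RNU5B-1 rose by 1.77 ± 0.16 in Kelly (3.41-fold, adjusted p = 0.000244) and by 1.30 ± 0.13 in SKNAS (2.46-fold, adjusted p = 0.000451). The differences of 0.61 ± 0.14 in BE2C (adjusted p = 0.0775) and 0.70 ± 0.18 in SHSY5Y (adjusted p = 0.0766) did not pass. The SHSY5Y one passed without untreated array 2 (0.021) or 3 (0.0312).

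RNU5D-1 read 8.55, 8.54 and 8.18 on untreated Kelly arrays and 9.72, 9.62 and 9.65 on treated ones. In SKNAS it read 7.62, 7.83 and 7.47 against 9.36, 9.52 and 9.47. The SKNAS step was the larger and the treated arrays of both lines were tightly grouped. In BE2C it read 6.85, 6.92 and 6.89 against 7.99, 8.19 and 8.19, and in SHSY5Y 8.61, 9.07 and 8.37 against 9.40, 9.37 and 9.31. The SHSY5Y groups were the closest, since untreated array 2 was high. RNU5D-1 rose by 1.24 ± 0.10 in Kelly (2.36-fold, adjusted p = 0.000133), 1.81 ± 0.10 in SKNAS (3.51-fold, adjusted p = 1.78e-05) and 1.24 ± 0.07 in BE2C (2.36-fold, adjusted p = 0.000546). It rose by 0.67 ± 0.15 in SHSY5Y (1.59-fold, adjusted p = 0.0421), a call lost under 9 of 15 alternatives with adjusted p up to 0.24. Among those 9 were the fits without untreated array 1 or 3 or any 1 treated array, with adjusted p between 0.0689 and 0.149.

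RNU5E-1 read 10.22, 10.21 and 9.94 on untreated Kelly arrays and 11.00, 10.87 and 10.88 on treated ones. In SKNAS it read 9.17, 9.42 and 9.04 against 10.38, 10.29 and 10.00. Treated and untreated arrays were well apart in both. In BE2C it read 8.20, 8.04 and 8.50 against 8.57, 8.77 and 8.60, and in SHSY5Y 10.08, 10.35 and 9.72 against 10.46, 10.57 and 10.55. In these lines the highest untreated array came within about 0.1 of the lowest treated one. RNU5E-1 rose by 0.80 ± 0.08 in Kelly (1.74-fold, adjusted p = 0.000454) and 1.01 ± 0.12 in SKNAS (2.02-fold, adjusted p = 0.00118). It differed by 0.40 ± 0.12 in BE2C (adjusted p = 0.156), and by 0.61 there with the mean of its pair of rows, which passed (adjusted p = 0.0392). The same change of 0.61 had an adjusted p of 0.178 in the authors' deposited table and did not pass there. In SHSY5Y RNU5E-1 differed by 0.47 ± 0.14 (adjusted p = 0.127, and 0.0297 without untreated array 2). A second, dimmer row, on chromosome 5, also carries this symbol, with a mean level of 7.04 against 9.74 for the row used. Its changes were 0.70, 0.87, 0.82 and 0.80 in Kelly, SKNAS, BE2C and SHSY5Y, and the Kelly one passed when adjusted over all 68993 rows (adjusted p = 0.048) and the others did not (adjusted p = 0.0641 to 0.107).

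RNU5F-1 lay below the array background on average, at 3.07. Its untreated arrays read 3.57, 3.32 and 3.03 in Kelly, 2.80, 2.98 and 2.73 in SKNAS, 2.61, 2.66 and 2.73 in BE2C and 2.97, 2.69 and 2.50 in SHSY5Y. Its treated arrays read 4.18, 3.70 and 3.36 in Kelly, 3.37, 3.23 and 2.85 in SKNAS, 3.01, 3.10 and 3.32 in BE2C and 2.82, 3.16 and 2.88 in SHSY5Y. The groups overlapped in all lines except BE2C. The change was 0.48 ± 0.09 in BE2C (adjusted p = 0.0327), a call lost under 7 of 14 alternatives (adjusted p up to 0.135), including the fits without any 1 untreated array or without treated array 5. It was 0.44, 0.31 and 0.23 in Kelly, SKNAS and SHSY5Y (adjusted p = 0.17, 0.243 and 0.561), and the SKNAS one passed without treated array 6 (0.0256). A dimmer row of the same symbol, at 2.70, had changes of 0.68 in Kelly, 0.57 in SKNAS, 0.61 in BE2C and 0.06 in SHSY5Y. With the mean of both rows RNU5F-1 passed in Kelly (0.56, adjusted p = 0.0365) and SKNAS (0.44, 0.0276) and not in BE2C (0.0591). Over all 68993 rows the dimmer row was called in Kelly (adjusted p = 0.00547) and SKNAS (0.0151) and not in BE2C (0.283) or SHSY5Y (0.924). On average over the lines RNU5F-1, by its brighter row, changed by 0.37 (limma adjusted p = 0.00325). That call was lost in the earlier deposit alone (0.38, limma adjusted p = 0.0648).

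The same arrays tended to be the extreme of their group for several genes. Untreated Kelly array 3 was the lowest of its group for all 7 genes, BE2C treated array 4 was the lowest for all 7, and SHSY5Y untreated array 2 was the highest for 6 of 7. Over the 120 symbols, Kelly untreated array 3 was the lowest for 76, BE2C treated array 4 for 89, and SHSY5Y untreated array 2 was the highest for 59. The same count was not made over all symbols. By the median of all symbols, Kelly untreated array 3 was also the lowest of its group (5.26 against 5.28 and 5.30). BE2C treated array 4 and SHSY5Y untreated array 2 were in the middle of theirs. Leaving out BE2C treated array 4 raised the calls in BE2C from 9 to 14. Leaving out an untreated BE2C array lowered them to 2 (array 1) or 3 (array 2 or 3), and leaving out treated array 5 to 5. In SHSY5Y the calls fell from 11 to 6 without untreated array 1 or treated array 5 and to 3 without treated array 6.

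**Figure D3:**
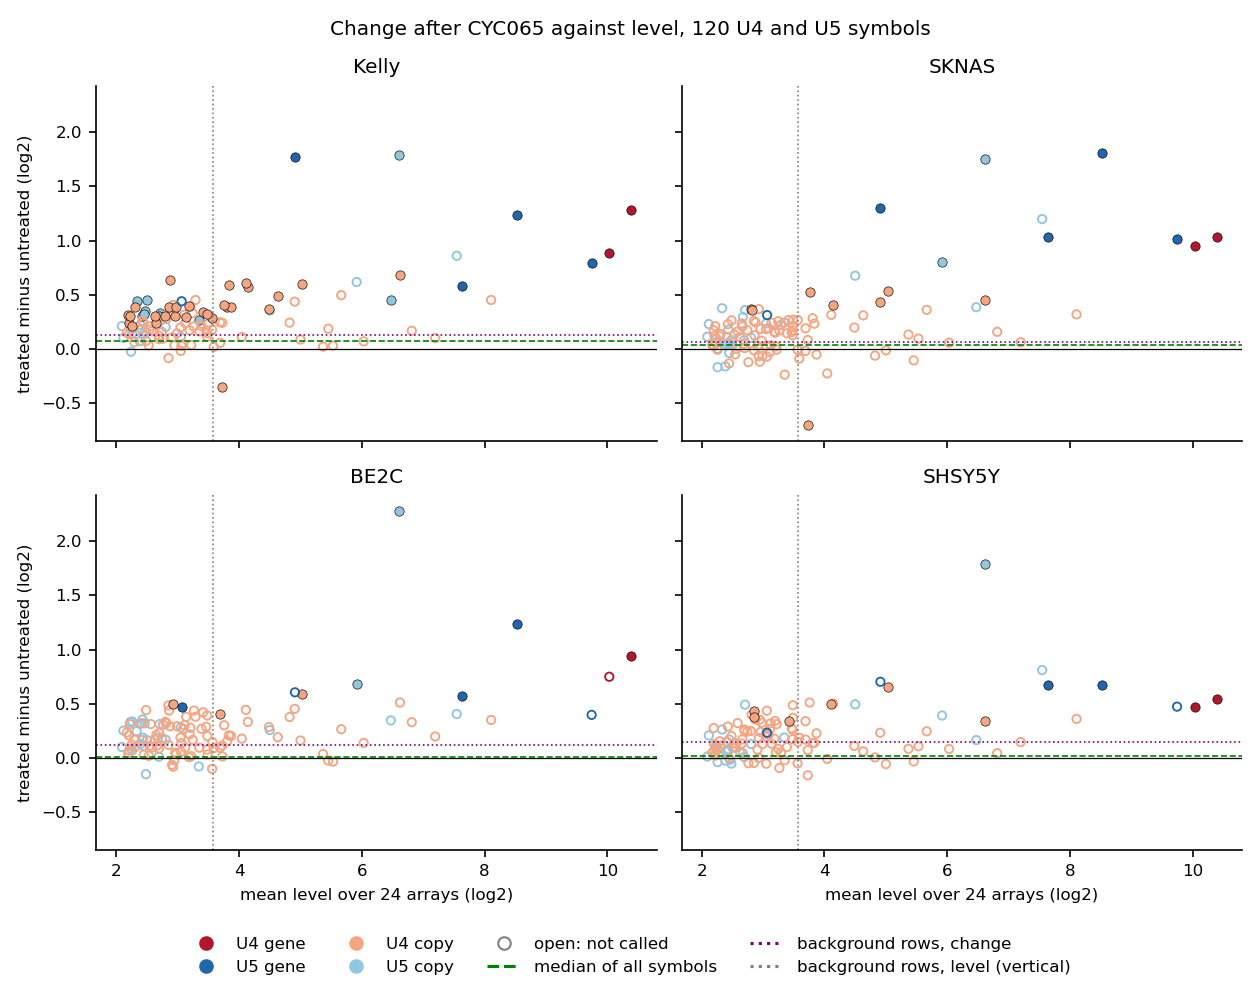
Change after CYC065 (treated minus untreated, log2) against the mean level over 24 arrays (log2) for the 120 symbols, 1 panel per line; filled points were called, the dashed line is the median change of all symbols, the dotted horizontal line the change of the background rows and the dotted vertical line their level. The copy RNU5E-4P, at a level of 6.61, has the largest or nearly the largest change in each panel. The genes other than RNU5B-1 and RNU5F-1 lie to its right, at changes from 0.40 to 1.81, and RNU5B-1 lies to its left. Most copies crowd near the background within 0.5 of 0.

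Of the 113 copies, 81 lay at or below the array background. In Kelly 25 of these 81 were called higher (30.9%, against 8.3% of all symbols at or below background), with a median change of 0.21 against 0.10 for all such symbols. In SKNAS, BE2C and SHSY5Y 2, 1 and 3 of the 81 were called (1.05%, 0.946% and 0.173% of all dim symbols). Of the 32 copies above background, 12 were called higher in Kelly (9.1% of all symbols above background), 7 in SKNAS (1.45%), 4 in BE2C (0.617%) and 4 in SHSY5Y (0.479%). Their median changes were 0.38, 0.22, 0.26 and 0.17. For the dim copies the medians were 0.21, 0.12, 0.18 and 0.14, beside 0.13, 0.07, 0.12 and 0.15 for the background rows. On average over the lines 39 of the 81 dim copies were called higher (19.1% of all dim symbols), as were 20 of the 32 brighter ones (14.5% of all brighter symbols).

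RNU5E-4P had the largest change of all 120 symbols on average over the lines. Its Kelly arrays read 6.47, 6.48 and 6.45 untreated and 8.34, 8.35 and 8.08 treated. Its SKNAS arrays read 5.90, 6.12 and 5.61 against 7.64, 7.60 and 7.65. Its BE2C arrays read 5.01, 5.19 and 5.06 against 7.23, 7.31 and 7.55. In all 3 lines the groups stood more than 1 unit apart. Its SHSY5Y arrays read 5.69, 5.14 and 4.83 against 7.07, 7.12 and 6.83, again far apart. RNU5E-4P rose by 1.79 ± 0.08 in Kelly (3.45-fold, adjusted p = 8.28e-06) and 1.75 ± 0.11 in SKNAS (3.37-fold, adjusted p = 4.36e-05). It rose by 2.28 ± 0.09 in BE2C (4.85-fold, adjusted p = 0.000184) and 1.79 ± 0.19 in SHSY5Y (3.45-fold, adjusted p = 0.00101). Each of these calls held under all 15 alternatives of its line. Over the lines the change was 1.90 ± 0.08 (3.73-fold, adjusted p = 3.54e-14), and its response did not differ detectably between lines (F test of limma, adjusted p = 0.401). It neighbours RNU5E-1 on chromosome 1 with 0 genes of the RefSeq table between them, and RNU5E-1 changed by 0.67 ± 0.07 on average.

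RNU4-68P, a U4 copy on chromosome 14, was the other copy called in all 4 lines. It read 4.69, 4.93 and 4.48 untreated and 5.25, 5.54 and 5.12 treated in Kelly, and 4.84, 4.93 and 4.70 against 5.06, 5.54 and 5.47 in SKNAS. It read 4.57, 4.68 and 4.75 against 5.13, 5.20 and 5.43 in BE2C, and 4.95, 4.88 and 4.42 against 5.51, 5.23 and 5.47 in SHSY5Y. The treated arrays were above the untreated ones throughout, by less than 1 unit. The changes were 0.60 ± 0.14 in Kelly (adjusted p = 0.0214), 0.53 ± 0.12 in SKNAS (0.0375), 0.59 ± 0.09 in BE2C (0.0174) and 0.66 ± 0.14 in SHSY5Y (0.0333). They were lost under 3, 8, 3 and 7 of 15 alternatives in that order, with adjusted p up to 0.0641, 0.147, 0.0812 and 0.264. The call of SKNAS or BE2C was lost without any 1 of its untreated arrays, and that of SKNAS also without treated array 5 or 6. The Kelly call was lost without untreated array 1 or 3 or treated array 5, and the SHSY5Y call without untreated array 2 or treated array 4 or 6. On average over the lines the change was 0.59 ± 0.07 (adjusted p = 1.83e-06), and no single array ended that call.

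The other named copies passed in the fit over all lines and in none to 3 of the single lines. RNU5D-2P, a U5 copy on chromosome 9, changed by 0.82 ± 0.15 on average (adjusted p = 0.000257), with no call in any line alone. Its changes were 0.86 ± 0.25 in Kelly (adjusted p = 0.0514), 1.20 ± 0.30 in SKNAS (0.0516), 0.41 ± 0.13 in BE2C (0.191) and 0.81 ± 0.24 in SHSY5Y (0.136). It passed in Kelly without untreated array 1 (0.0261), in SKNAS without untreated array 1 (0.0395) or treated array 6 (0.0139) and in SHSY5Y without untreated array 2 (0.0059). RNU5A-8P, a U5 copy within the span of the acyltransferase gene HHAT, rose by 0.80 ± 0.12 in SKNAS (adjusted p = 0.00455) and 0.68 ± 0.11 in BE2C (adjusted p = 0.0233). The BE2C call of RNU5A-8P was lost under 6 of 15 alternatives, including the fits without any untreated array or without treated array 5 or 6 (adjusted p = 0.0701 to 0.101). Its changes in Kelly and SHSY5Y were 0.62 ± 0.28 and 0.39 ± 0.13 (adjusted p = 0.154 and 0.172), and HHAT itself changed by 0.09 on average. RNU4-62P, within the span of HCLS1, rose by 0.68 ± 0.10 in Kelly (adjusted p = 0.00245), 0.45 ± 0.07 in SKNAS (0.00503) and 0.34 ± 0.08 in SHSY5Y (0.0425). The SHSY5Y call of RNU4-62P was lost under 10 of 15 alternatives (adjusted p up to 0.464), including the fit without any 1 of the 6 arrays (0.0584 to 0.211), and its BE2C change was 0.51 ± 0.16 (adjusted p = 0.161). RNU5E-2P changed by 0.45 ± 0.14 on average (adjusted p = 0.0183) and was called in no line. Its average was no longer called without SKNAS (adjusted p = 0.0921), in the deposits taken singly (0.0617 and 0.235) or with centring on the background rows (0.0887).

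RNU4-32P was the only one of the 120 symbols called lower in any line or on average. This U4 copy lies on chromosome 12 within the span of MMAB, a gene of cobalamin metabolism. It read 3.68, 3.72 and 3.92 untreated and 3.39, 3.42 and 3.47 treated in Kelly, and 4.21, 3.95 and 4.31 against 3.56, 3.48 and 3.32 in SKNAS. The groups were separate in both lines, and the treated values of 3.32 to 3.56 lay near the background rows, which read 3.30 to 3.49 on those arrays. In BE2C it read 3.74, 3.52 and 3.70 against 3.77, 3.66 and 3.57, and in SHSY5Y 3.80, 4.08 and 3.91 against 3.81, 3.78 and 3.72. These groups overlapped. RNU4-32P fell by 0.35 ± 0.07 in Kelly (adjusted p = 0.0121) and by 0.70 ± 0.10 in SKNAS (adjusted p = 0.00374). Its changes were 0.01 ± 0.08 in BE2C (adjusted p = 0.951) and −0.16 ± 0.09 in SHSY5Y (adjusted p = 0.536). On average it fell by 0.30 ± 0.05 (adjusted p = 3.68e-05), but in the later deposit alone the value was −0.07 (adjusted p = 0.593). MMAB differed by −0.10 in Kelly, 0.13 in SKNAS, 0.10 in BE2C and −0.03 in SHSY5Y, with adjusted p from 0.161 to 0.964.

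**Figure D4:**
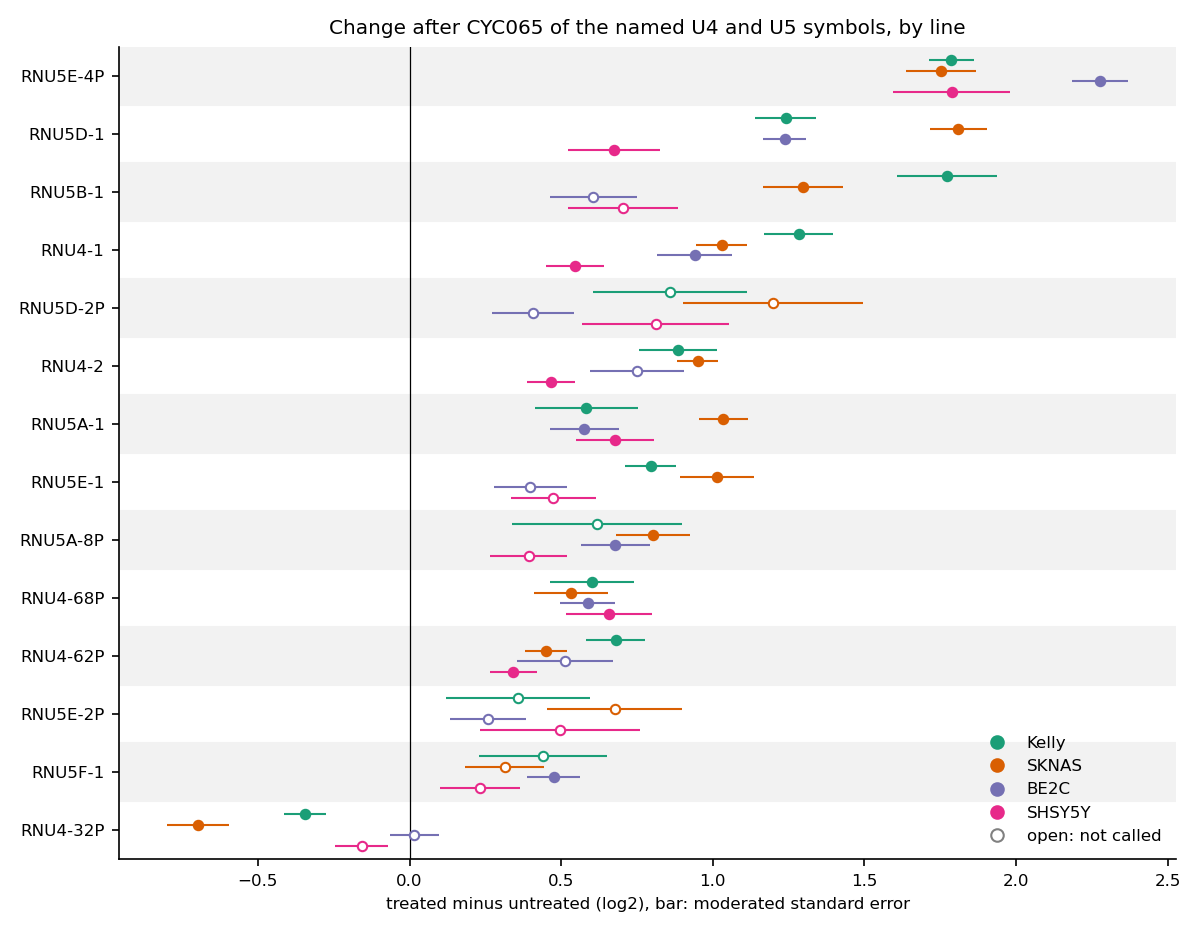
Change after CYC065 (treated minus untreated, log2) of the named U4 and U5 symbols, with 1 point per line and its moderated standard error as a bar; open points were not called and symbols are ordered by their average over the lines. RNU5E-4P lies highest, from 1.75 to 2.28, and every point of the other symbols lies above 0 except for RNU4-32P at the bottom.

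The lines were compared to ask whether the symbols responded unequally. An F test in the fit to all 24 arrays called 4 of the 120 symbols (5.14% of all symbols were called). These were RNU5D-1 (adjusted p = 0.00262, changes spanning 1.14), RNU4-32P (adjusted p = 0.00706, spanning 0.71), RNU5B-1 (adjusted p = 0.0223, spanning 1.16) and RNU4-1 (adjusted p = 0.0477, spanning 0.74). RNU5D-1 changed most in SKNAS and least in SHSY5Y, RNU5B-1 most in Kelly and least in BE2C, and RNU4-1 most in Kelly and least in SHSY5Y. The RNU5D-1 call held under all 31 alternatives. The RNU4-1 call was lost under 21 of 31, with adjusted p up to 0.132. Those 21 include 18 of the 24 fits without 1 array, all except those without Kelly treated array 5, BE2C untreated array 2 or 3, BE2C treated array 4 or 5 or SHSY5Y untreated array 1. The RNU5B-1 call was lost under 5 of 31, among them the fits without Kelly untreated array 3 (0.075) and without Kelly treated array 6 (0.0617). That of RNU4-32P was lost under 1, centring on the background rows (0.136).

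Within the deposits, limma called 0 of 120 symbols for a difference in response between Kelly and SKNAS, where 3.89% of all symbols were called (0.949% for more change in Kelly and 2.95% for less). It also called 0 between BE2C and SHSY5Y, where 0.995% were called (0.843% for more change in BE2C and 0.152% for less). At an unadjusted p under 0.05 there were 14 for Kelly and SKNAS (13.5% of all symbols) and 9 for BE2C and SHSY5Y (9.46%). Fits with array weights called 3 symbols in each. Leaving out single arrays gave 0 or 1, with 1 for Kelly and SKNAS without Kelly untreated array 2 or 3, SKNAS untreated array 2, SKNAS treated array 6 or any 1 SHSY5Y untreated array, and 1 for the other pair without SHSY5Y untreated array 3. Across the 120 symbols the changes of any pair of lines had a Pearson correlation of 0.717 to 0.857 and a Spearman correlation of 0.417 to 0.653. Over the 113 copies alone the ranges were 0.701 to 0.804 and 0.322 to 0.588. These describe symbols, which share sequence and arrays and are not independent replicates.

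Before treatment, all 5 U5 genes differed between Kelly and SKNAS, and 2 of the 5 between BE2C and SHSY5Y. Untreated Kelly and SKNAS differed in 7 symbols higher in Kelly (18.2% of all symbols were) and 12 lower (18.7% of all symbols were), 19 together (36.8%). All 5 U5 genes were among the 7 higher in Kelly. RNU5E-1 averaged 10.12 ± 0.15 (SD, n = 3) in Kelly and 9.21 ± 0.19 in SKNAS, a difference of 0.91 ± 0.16 (limma adjusted p = 0.000271). RNU5A-1 averaged 7.17 ± 0.35 and 6.37 ± 0.13, a difference of 0.80 ± 0.16 (limma adjusted p = 0.00126). RNU5D-1 averaged 8.42 ± 0.21 and 7.64 ± 0.18, a difference of 0.79 ± 0.15 (limma adjusted p = 0.000769). The untreated arrays of Kelly and SKNAS did not overlap for any of these. The copy RNU5A-8P differed by 0.90 ± 0.18 in the same direction (adjusted p = 0.00107), and RNU5E-4P by 0.59 ± 0.17 (adjusted p = 0.0138, and 0.0731 without SKNAS untreated array 3). The differences for RNU5B-1 (0.51, adjusted p = 0.0428, lost under 10 of 19 alternatives, including the fits without any SKNAS array, Kelly untreated array 1 or 2, BE2C untreated array 2 or SHSY5Y untreated array 1, at 0.0515 to 0.168) and RNU5F-1 (0.47, adjusted p = 0.0109, and 0.0604 without Kelly untreated array 1) were less firm. RNU4-2 was lower in Kelly by 0.32 ± 0.10 (adjusted p = 0.0206, lost under 4 of 19 alternatives, including the fits without Kelly untreated array 3 and without SKNAS untreated array 2 or 3, at 0.056 to 0.0786), while the RNU4-1 difference of −0.18 ± 0.11 did not pass (adjusted p = 0.25).

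Untreated BE2C and SHSY5Y differed in 32 symbols lower in BE2C (14.5% of all symbols were) and 0 higher (16.3%, and 1 higher at an unadjusted limma p under 0.05), where 30.8% of all symbols were called in either direction. That unadjusted limit was passed by 12688 of all 32970 symbols in either direction. RNU5E-1 averaged 8.25 ± 0.24 (SD, n = 3) in BE2C and 10.05 ± 0.31 in SHSY5Y, lower by 3.49-fold (limma adjusted p = 6.61e-07). With the mean of its pair of rows in place of the brighter one, the log2 difference was −1.01 and not −1.80. RNU5D-1 averaged 6.89 ± 0.04 and 8.68 ± 0.35, lower by 3.48-fold (limma adjusted p = 5.27e-07). The copy RNU5D-2P averaged 6.34 ± 0.19 and 8.15 ± 0.59, lower by 3.5-fold (limma adjusted p = 0.000449), and RNU5E-2P was lower by 1.94-fold (limma adjusted p = 0.0116, and 0.0509 and 0.0508 without BE2C untreated array 1 and SHSY5Y untreated array 2). None of the BE2C arrays reached the SHSY5Y range for RNU5D-1, RNU5E-1, RNU5D-2P or RNU5E-2P. Both U4 genes were lower in BE2C by smaller amounts, RNU4-1 by 1.42-fold (limma adjusted p = 0.0021) and RNU4-2 by 1.44-fold (limma adjusted p = 0.000766). RNU5A-1 and RNU5B-1 differed by −0.44 ± 0.16 and −0.17 ± 0.18, which did not pass (limma adjusted p = 0.0591 and 0.545). The RNU5A-1 one passed without SHSY5Y untreated array 3 (0.0375) and, through the shared estimate of spread, without Kelly untreated array 1 or 3 (0.0473 and 0.0183). With centring on the background rows 17 symbols were called in place of 32.

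Other small nuclear RNA classes were measured on the same arrays and are given beside the U4 and U5 symbols as a description. Of all symbols, 8.92%, 1.36%, 0.692% and 0.409% were called higher in Kelly, SKNAS, BE2C and SHSY5Y. The shares called lower were 10.9%, 4.58%, 3.05% and 3.96%. Of 99 U1 symbols, 84 were called higher in Kelly, 72 in SKNAS, 43 in BE2C and 24 in SHSY5Y, with median changes of 0.66, 0.60, 0.44 and 0.32. Of 69 U2 symbols, 42, 29, 13 and 20 were called higher. The 4 genes of the minor spliceosome, which removes a rare class of introns, were called higher in 4, 3, 3 and 3 cases. None of the U1, U2 or minor spliceosome symbols was called lower in any line. U6 is made by RNA polymerase III, and of its 1236 symbols 78, 35, 5 and 3 were called higher and 18, 17, 7 and 2 lower. The U6 shares called higher were 6.31%, 2.83%, 0.405% and 0.243%, above the share of all symbols only in SKNAS. U7 acts in the processing of histone messages and, like U1, U2, U4 and U5, is made by RNA polymerase II. Of its 157 symbols 8, 0, 0 and 0 were called higher and 7, 25, 6 and 3 lower (4.46%, 15.9%, 3.82% and 1.91% lower). These classes differ in how far above background they lie: 88 of 99 U1 symbols were above it, against 38 of the 120 U4 and U5 symbols and 28 of 157 U7 symbols.

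The mRNAs of proteins that work with U4 and U5 were counted in the same way, where 8.92%, 1.36%, 0.692% and 0.409% of all symbols were called higher and 10.9%, 4.58%, 3.05% and 3.96% lower in Kelly, SKNAS, BE2C and SHSY5Y. Of the 6 proteins bound to U4/U6, 3 were lower and 1 higher in Kelly and 0, 1 and 1 lower in SKNAS, BE2C and SHSY5Y. PRPF4, a core U4/U6 protein, changed by −0.47 ± 0.06, −0.20 ± 0.07, −0.27 ± 0.05 and −0.41 ± 0.08 in that order of lines (limma adjusted p = 0.00163, 0.166, 0.0295 and 0.027). SART3, which helps U4 and U6 pair again after splicing, fell by 0.47 ± 0.06 in Kelly (limma adjusted p = 0.00122) and was not called in the other lines. Of 10 U5 proteins, 3 were lower in Kelly, 1 in SHSY5Y and 0 in the others. AAR2, a U5 assembly factor, fell by 0.49 ± 0.06 in Kelly (limma adjusted p = 0.00114) and 0.35 ± 0.08 in SHSY5Y (limma adjusted p = 0.0346). None of the 3 proteins that join U4/U6 to U5 (USP39, SNRNP27 and SART1) was called in any line, with changes between −0.08 and 0.07. Of 14 Sm and LSm ring proteins, 2 were higher and 2 lower in Kelly and none was called elsewhere.

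Among the mRNAs of factors that make small nuclear RNA, more were called lower than higher. Of 14 promoter factors, 7 were called lower in Kelly, 1 in SKNAS, 2 in BE2C and 5 in SHSY5Y, and 0 higher, where 10.9%, 4.58%, 3.05% and 3.96% of all symbols were called lower. ZNF143, which activates small nuclear RNA promoters, had changes of −0.47 ± 0.05, −0.24 ± 0.07, −0.40 ± 0.05 and −0.52 ± 0.10 in the same order of lines (limma adjusted p = 0.000794, 0.08, 0.00669 and 0.0207). ELL, part of the little elongation complex that serves these genes, changed by −0.59 ± 0.06, −0.37 ± 0.07, −0.48 ± 0.06 and −0.27 ± 0.08 (limma adjusted p = 0.000422, 0.0169, 0.00669 and 0.149). Of 14 Integrator subunits, 5, 1, 1 and 3 were called lower and 1 higher, in Kelly. INTS5 fell by 0.82 ± 0.08 in Kelly (limma adjusted p = 0.000427), by 0.33 ± 0.08 in SKNAS (limma adjusted p = 0.0395) and by 0.44 ± 0.09 in SHSY5Y (limma adjusted p = 0.0255). INTS6 fell by 0.56 ± 0.05 in Kelly (limma adjusted p = 0.000128), 0.34 ± 0.06 in BE2C (limma adjusted p = 0.0339) and 0.43 ± 0.09 in SHSY5Y (limma adjusted p = 0.0246).

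Of 21 factors of export, assembly and maturation, 9, 6, 4 and 7 were called lower in Kelly, SKNAS, BE2C and SHSY5Y, and 1 higher, in Kelly. DDX20, the helicase of the SMN complex also called Gemin3, fell by 1.21 ± 0.05, 0.86 ± 0.07, 0.55 ± 0.06 and 1.16 ± 0.10 (limma adjusted p = 7.5e-06, 9.24e-05, 0.00585 and 0.000308). COIL encodes coilin, the scaffold of the Cajal bodies in which small nuclear RNAs mature. It fell by 0.57 ± 0.05, 0.69 ± 0.06, 0.33 ± 0.06 and 0.81 ± 0.12 (limma adjusted p = 0.000201, 0.000188, 0.0377 and 0.00618). TOE1, which trims the 3′ ends of small nuclear RNAs, fell by 0.79 ± 0.06, 0.54 ± 0.06, 0.30 ± 0.05 and 0.59 ± 0.07 (limma adjusted p = 7.99e-05, 0.000673, 0.0233 and 0.00122). Across the 4 lines the median change of this list was −0.15, −0.11, −0.06 and −0.09, and that of the promoter factors −0.34, −0.10, −0.14 and −0.26, beside 0.07, 0.03, 0.01 and 0.02 for all symbols. For the Integrator subunits the medians were −0.01, 0.02, −0.06 and 0.03 in the same order.

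Many copies lie within other genes. By the RefSeq table, 53 of the 120 symbols lie within the span of a measured gene. In 14 cases that gene was called lower in at least 1 line, and 6 of those 14 symbols were called higher on average over the lines and 0 lower (15.6% and 12.9% of all symbols). Of all 53, 29 were called higher on average, a share close to the 55% of the whole set. RNU4-1 is also annotated within the span of SIRT4, which differed by −0.11 in Kelly, −0.05 in SKNAS, −0.03 in BE2C and −0.23 in SHSY5Y (adjusted p = 0.214 to 0.92). The strand of each row relative to the gene around it was not examined.

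The authors' deposited table tests BE2C and SHSY5Y with its own adjustment. At an adjusted p under 0.05 in the authors' deposited table, 4 of the 120 symbols were called in BE2C (1.83% of its symbols) and 5 in SHSY5Y (2.72%). All 4 and all 5 were among the symbols called here. In the authors' deposited table RNU5E-4P had an adjusted p of 0.000477 in BE2C and 0.00382 in SHSY5Y, and RNU4-1 had 0.0227 and 0.0367.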

How the data were processed

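The deposited human values are log2 summaries per array row. The submitters' processing notes name RMA, affy and limma with no version or role, and per the labels' protocols 100 ng of total RNA from a Qiagen RNeasy Plus kit was labelled with the WT PLUS kit for each array. How fully such a kit recovers RNA as short as U4 and U5 was not tested. RMA puts arrays on a common scale, so changes are relative to the other rows. The genome build is not given in the sources used here. The authors' deposited table gives, for BE2C and SHSY5Y, log2 fold changes, mean log2 levels and p-values per symbol.

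A row, or the mean of 2 rows, was given a symbol when its mean level and change, in BE2C and again in SHSY5Y, equalled the 4 values of the authors' deposited table within 1e-07, and the brighter of 2 rows was kept. Of 33720 symbols, 32970 (97.8%) were placed: 26740 on 1 row and 6230 on 2. The others had no match (632), shared a row (105) or had become dates (13). With SHSY5Y values moved to other symbols, 0 rows matched and 0 of 500 searches for pairs did. RefSeq (GRCh38.p14) gave chromosomes and neighbours for 119 symbols of the set, all on the chromosome of their row. The group, dose and time of each array came from its labels.

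Each line was fitted by limma 3.58.1 in R 4.3.3, 3 arrays against 3, and a fit of 8 group means to 24 arrays gave the average, the F test and the differences between lines. A fit to the 12 untreated arrays gave untreated levels. A value after ± is a moderated standard error where it follows a change and an SD where it follows a level. Adjusted p-values run over all placed symbols. The number of arrays limits the precision. Tested on simulated data of 32970 symbols, 50 changed per fold, the Kelly fit recovered 96% at 2-fold, 64% at 1.5-fold and 6% at 1.25-fold. The SHSY5Y fit recovered 98%, 68% and 8%. Far more symbols were called in the data than were changed in the simulation (6545 in Kelly), so these shares need not hold there. In Kelly 37 of the 113 copies were called higher.

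The symbols and protein lists were chosen with earlier results of these data known. Named were all genes, the copies called higher in all 4 lines, the 5 largest average rises and falls among called copies, symbols called lower or differing between lines, the 4 largest untreated differences of each pair, the 3 with the highest mean level and up to 3 proteins per list. Alternatives were other scalings, variance estimates and weights, no dim symbols, the mean of 2 rows, adjustment over all rows, a minimum fold, and leaving out arrays, lines or deposits. The mouse arrays were not used here.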

Additional observations from a re-analysis of the deposited data

Results flagged for a closer look

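The response to CYC065 differed between the 4 lines for 4 named symbols by the F test of limma on the 24 arrays, out of 120 (5.14% of all symbols were called). RNU5D-1 had an adjusted p of 0.00262, with rises of 1.24 in Kelly, 1.81 in SKNAS, 1.24 in BE2C and 0.67 in SHSY5Y. RNU4-32P had an adjusted p of 0.00706, with changes of −0.35, −0.70, 0.01 and −0.16 in the same order. RNU5B-1 had an adjusted p of 0.0223, with differences of 1.77, 1.30, 0.61 and 0.70, of which the last 2 were not called in their lines. RNU4-1 had an adjusted p of 0.0477, with rises of 1.28, 1.03, 0.94 and 0.55, and lost that call under 21 of 31 alternatives. The dose given to SKNAS is in conflict between the labels and the protocol, and line and dose cannot be told apart there. Groups of 3 arrays are too small to test for single arrays that stand apart.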

How the results depend on the processing

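Counts are of symbols called among the 120, in either direction. A setting can change the calls of all symbols. The shares of all symbols called under each setting are not given here, so the counts cannot be set against them. Quantile normalisation gave 23 in Kelly, 7 in SHSY5Y and 2 in the F test, and median centring 7 in SHSY5Y and 2 in the F test. Array weights gave 33 in SHSY5Y, 10 in the F test, 3 for each difference between a pair of lines and 50 for untreated BE2C against SHSY5Y. Centring on background rows, chosen after seeing the data, gave 14 in Kelly, 1 in SHSY5Y, 29 on average, 1 in the F test and 17 for untreated BE2C against SHSY5Y. A shared spread gave 17 in BE2C (6 shared with the reported 9) and 20 in SHSY5Y (9 of 11 shared). Without dim symbols, when 38 to 45 symbols of the set were left in the affected fits, there were 23 in Kelly, 27 on average, 1 for the response of Kelly minus SKNAS, 11 for untreated Kelly against SKNAS and 20 for untreated BE2C against SHSY5Y. Adjustment over all rows gave 5 in BE2C and 6 in SHSY5Y. A minimum fold of 1.5 left 11, 9, 5 and 4 in Kelly, SKNAS, BE2C and SHSY5Y, 10 on average and 7 in each untreated comparison, and the later deposit alone gave 28 on average. Leaving out 1 array gave 31 to 40 in Kelly, 12 to 20 in SKNAS, 2 to 14 in BE2C, 3 to 12 in SHSY5Y, 64 to 82 on average, 2 to 5 in the F test, 0 to 1 for each difference between a pair of lines, 14 to 21 for untreated Kelly against SKNAS and 24 to 39 for untreated BE2C against SHSY5Y. Causes were not tested. Of 2316 values of the 14 named symbols under alternatives, 2110 kept their direction and side of the threshold, 141 lost a call, 53 gained one and 12 changed sign, none of them called. For RNU4-32P in BE2C these were −0.037 (quantile), −0.000748 (weights) and −0.10 (background rows), and −0.052 to 0.063 without single arrays. For untreated BE2C against SHSY5Y they were 0.015 (median) and 0.029 (background rows) for RNU5F-1 and 0.00072 (background rows) for RNU4-68P, and without single arrays −0.17 to 0.070 for RNU5F-1, −0.25 to 0.016 for RNU4-68P, −0.33 to 0.10 for RNU5E-4P and −0.41 to 0.018 for RNU5B-1. No paired analysis was possible because untreated and treated arrays of a line share no replicate number. For most copies the signal near background limits what these arrays can show.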
